A study of Homo sapiens with 12 samples.

Results

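The G2/M and mitosis genes encode the kinases, checkpoint proteins, kinetochore proteins, motors and spindle proteins that take a cell from the end of DNA replication through division. A list of 50 of them was read in A549, a human line from a lung adenocarcinoma that resembles alveolar type II cells, and 49 were measured among the 18132 genes tested. Genes were taken by the gene symbol of the platform annotation from probe sets with 1 symbol, and a gene with several such probe sets was read through the one with the highest mean over all arrays. PTTG1, which encodes the separase inhibitor securin, was not analysed here. The series held 12 Affymetrix PrimeView arrays in 4 groups of 3. The groups were monolayers heat shocked for 2 h and then wounded for 4 h, monolayers heat shocked for 2 h, monolayers wounded for 4 h, and untreated control monolayers. All were grown on uncoated plastic in medium with serum, and the labels name no genetic change, no temperature and no time of collection for the monolayers that were only heat shocked. The series set out to compare gene expression with and without heat shock in a wounded epithelium, where the design text speaks of multiple wounds. The labels leave it unsaid whether the 3 samples of a group were separate cultures, so p-values measure the spread between these samples, which may be technical.

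Most of these genes are transcribed late in the cell cycle, with transcripts and proteins that build up in G2, serve in mitosis and are cleared as the daughter cells enter G1. Cyclin B bound to the kinase CDK1 starts mitosis, the spindle checkpoint holds the cell until every kinetochore has caught microtubules, and the APC/C ubiquitin ligase then releases separase and destroys the cyclin. In resting cells the DREAM complex holds many of these genes down through the CHR element of their promoters. In cycling cells MYBL2 with MuvB, and then FOXM1, activate them. Their summed level is widely used to gauge how many cells of a culture are dividing.

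Values were log2 probe set levels that the authors made with RMA, so a difference of 1 is a factor of 2 and levels can be set side by side between arrays but not between genes. Over all probe sets with a value on every array, the median log2 level was close to 5.3 on each of the 12 arrays. Arrays of a group correlated at 0.994 or above over these probe sets. The second heat shocked and wounded array had a narrower spread of levels than the others, with an interquartile range of 3.98 against 4.13 to 4.24 on the other arrays. Without that array, the members' count after both treatments against control was 40, as with it. Without a detection call, the upper quartile of 21 leukocyte and endothelial marker genes in control arrays, at a log2 level of 4.60, stood for the dim range. No member had a group mean under it, and the members' group means ran between 5.42 and 12. Genes that mark the treatments were read as a check. The heat shock gene HSPA6, whose control level lay under the dim range, was higher by at least 6.16 (log2 above that range) after heat shock and wounding and by at least 5.49 after heat shock alone, while the wound-induced gene EGR1 was higher by 2.98 after both and by 2.99 after wounding alone, and also by 1.03 after heat shock alone. Of the marker lists for other cell types, 7 of 9 fibroblast genes had a group mean under the dim range in each treated group and 8 in control, 9 of 12 leukocyte genes did in each group, and 6, 8, 7 and 6 of 9 endothelial genes did in heat shocked and wounded, heat shocked, wounded and control monolayers. The summed linear level of the 12 epithelial markers was 24733 to 25514 on heat shocked and wounded arrays, 25458 to 26067 on heat shocked, 25556 to 26353 on wounded and 26461 to 27719 on control arrays. That sum mainly follows KRT18 and KRT8, which had the highest levels of the 12. Gene by gene, 2 of the 12 were called higher and 1 lower after both treatments, against 8.66% and 14.4% of all genes. Their median log2 difference was 0.12. The other sums were lower. For the fibroblast markers the summed level was 159 to 189, 146 to 157, 132 to 144 and 133 to 147 in the same order of groups, for the endothelial markers 195 to 229, 181 to 193, 176 to 188 and 176 to 177, and for the leukocyte markers 220 to 243, 218 to 232, 216 to 237 and 225 to 244. The fibroblast collagen gene COL1A1 (at least 1.04, since its control level was under the dim range) and the endothelial adhesion gene ESAM (0.49) were called higher after both treatments. Their part in the results that follow was not tested.

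Mitotic transcripts were lowest after heat shock and wounding, next lowest after heat shock alone, and close to control after wounding alone. Of the 49 genes, 40 were called lower and 0 higher in heat shocked and wounded than in control monolayers, with a median log2 difference of -0.48 and a range of -1.05 to 0.14. That median corresponds to a level that fell by 28.3%. Among all 18132 genes tested 14.4% were called lower and 8.66% higher in that comparison, and the median difference over all genes was -0.01. A call here is a Benjamini-Hochberg adjusted p under 0.05 in limma, adjusted over all genes tested. After heat shock alone, 27 members were called lower and 1 higher, with a median of -0.27 and a range of -0.78 to 0.25, against 7.92% of all genes called lower and 4.93% called higher and a median over all genes of -0.03. After wounding alone, 1 member was called lower and 0 higher, with a median of -0.10 and a range of -0.36 to 0.05, against 1.31% of all genes called lower and 2.27% called higher and an all-gene median of -0.03. All 3 comparisons use the same control arrays, so their values are not independent. In bulk RNA, fewer dividing cells and less RNA of these genes per dividing cell cannot be told apart.

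The single arrays kept the same order as the groups. The median over members of the log2 difference from the control mean was -0.47, -0.52 and -0.44 on the 3 heat shocked and wounded arrays, -0.31, -0.30 and -0.23 on the heat shocked arrays, -0.09, -0.09 and -0.12 on the wounded arrays, and 0.01, 0.01 and -0.03 on the control arrays. The groups did not overlap in this value. Each of the heat shocked and wounded arrays had 48 of 49 members below the control mean, against 47, 46 and 42 on the heat shocked arrays and 39, 42 and 40 on the wounded arrays. By group means, 9319 of all 18132 genes lay below control after both treatments and 10723 after heat shock. After wounding 11274 did (62.2%). For 40 of 49 genes the group means stood in one order, with heat shocked and wounded lowest, then heat shocked, then wounded, then control. By their calls against control, 27 genes were lower after heat shock and after both treatments but not after wounding, 13 were called after both treatments but after neither one alone, and 7 were called in none of the 3 comparisons. CKS2, called higher after heat shock, and CDC25B, called lower after wounding, each had a pattern of its own. The same order and patterns were not counted over all genes.

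**Figure D1:**
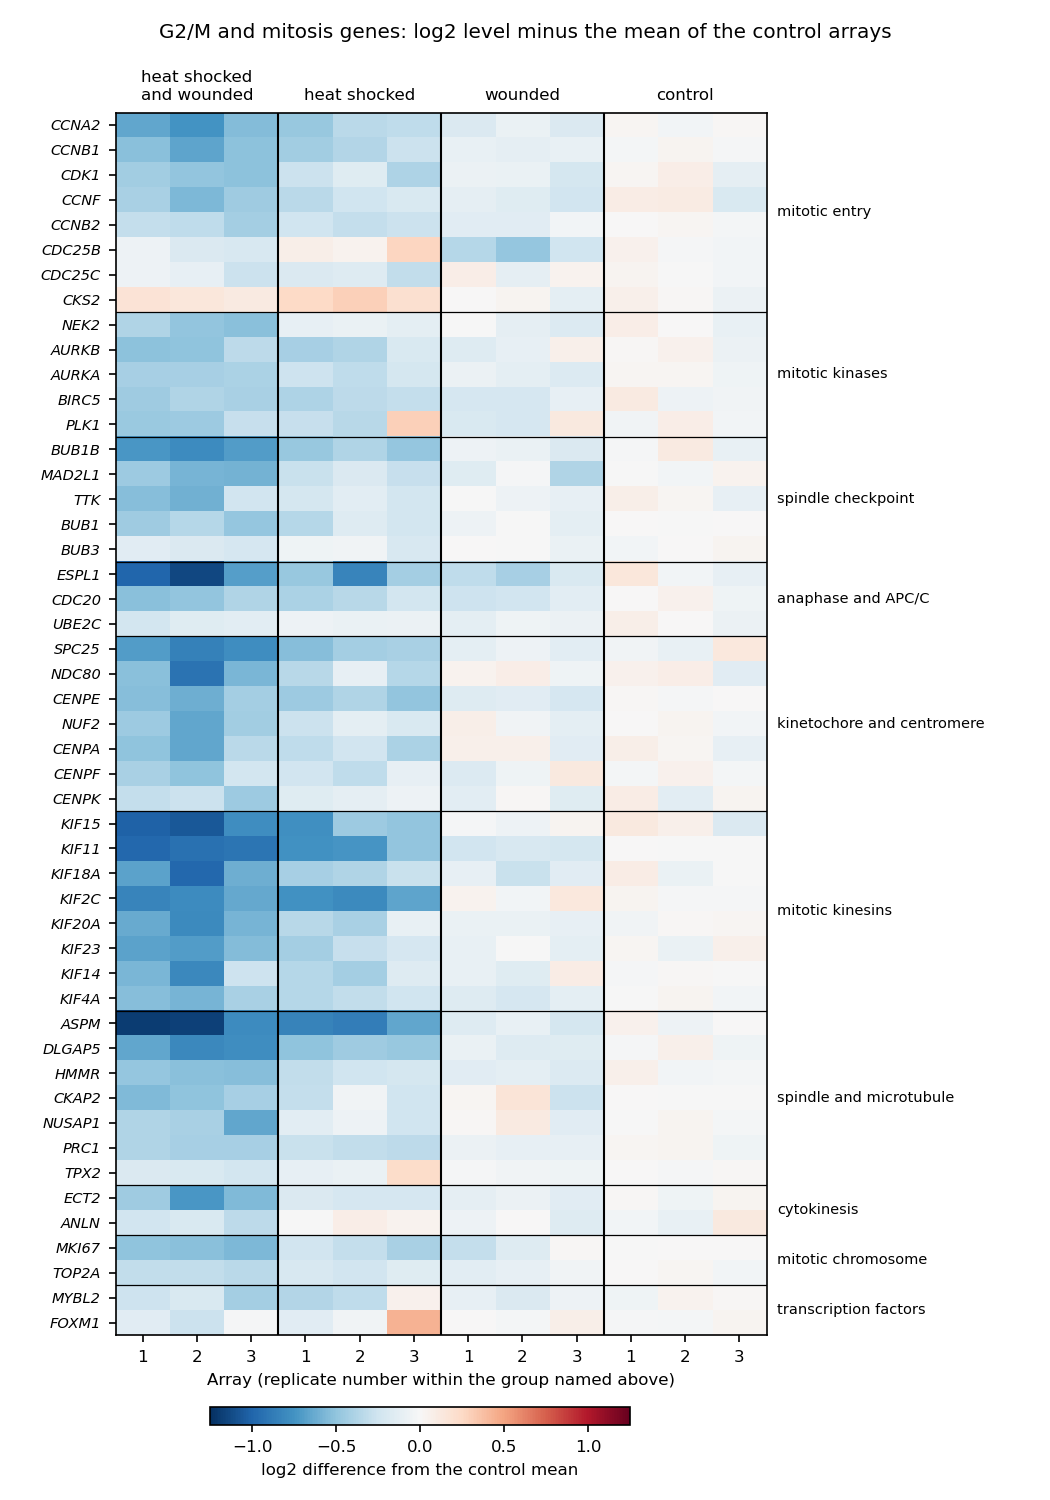
Log2 level minus the mean of the control arrays for the 49 genes (rows, by role) on the 12 arrays (columns, 3 per group). Blue is below and red above the control mean. The 3 heat shocked and wounded columns are blue in 48 of 49 rows each, the heat shocked columns are paler, and the wounded columns are near white.

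The 4 largest falls after both treatments were those of ASPM, KIF15, ESPL1 and KIF11. ASPM, a microtubule minus-end protein at the spindle poles, read 7.82, 7.84 and 8.22 on heat shocked and wounded arrays, 8.17, 8.14 and 8.35 on heat shocked arrays, 8.84, 8.91 and 8.79 on wounded arrays and 9.06, 8.94 and 9.01 on control arrays. Every heat shocked array, wounded or not, lay below every array without heat shock. Against control, ASPM fell by 51.6% after both treatments, a log2 difference of -1.05 ± 0.10 (SE; adjusted p = 1.43e-05, limma), and fell by 41.9% after heat shock alone (-0.78 ± 0.10, adjusted p = 0.000376). KIF15, a kinesin that helps keep the spindle bipolar, read 5.36, 5.31 and 5.59 on heat shocked and wounded arrays, 5.60, 5.91 and 5.88 on heat shocked, 6.36, 6.31 and 6.40 on wounded and 6.49, 6.43 and 6.19 on control arrays. Its wounded and control arrays overlapped, and the heat shocked and wounded arrays lay just below the heat shocked ones. KIF15 differed by -0.95 ± 0.11 after both treatments (adjusted p = 4.06e-05, limma) and by -0.57 ± 0.11 after heat shock (adjusted p = 0.0038).

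ESPL1 encodes separase, the protease that cuts the cohesin ring at anaphase. It read 6.24, 6.09 and 6.54 on heat shocked and wounded arrays, 6.76, 6.40 and 6.80 on heat shocked, 6.91, 6.82 and 7.03 on wounded and 7.37, 7.19 and 7.13 on control arrays. The 2 heat shocked groups overlapped, and both lay below the wounded and control arrays. The difference was -0.94 ± 0.13 after both treatments (adjusted p = 0.000208, limma) and -0.58 ± 0.13 after heat shock (adjusted p = 0.0112), the second of which did not pass without control replicate 1 (adjusted p = 0.0542). With the mean over both ESPL1 probe sets, the other of which was dim, the heat shock difference was -0.22 (adjusted p = 0.207). KIF11, the Eg5 motor that pushes the spindle poles apart, read 9.14, 9.19 and 9.21 on heat shocked and wounded arrays, 9.36, 9.38 and 9.62 on heat shocked, 9.88, 9.92 and 9.89 on wounded and 10.12, 10.11 and 10.12 on control arrays. Its 4 groups did not overlap. KIF11 fell by 47.8% after both treatments (-0.94 ± 0.07, adjusted p = 1.8e-06, limma) and fell by 36.8% after heat shock (-0.66 ± 0.07, adjusted p = 9.65e-05). After wounding its difference was -0.22 ± 0.07, which did not pass (adjusted p = 0.151).

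The promoters of these 4 genes are shown because they had the largest falls among members with a CHR form, a known late cell cycle element, upstream of the start. The stretches are the 150 bases before the RefSeq start on GRCh38.p14, at chr1:197146670-197146819 on the minus strand for ASPM, chr3:44761644-44761793 on the plus strand for KIF15, chr12:53268149-53268298 on the plus strand for ESPL1 and chr10:92592980-92593129 on the plus strand for KIF11. They run 5′ to 3′, and capitals mark the CHR form TTTGAA, or its reverse complement TTCAAA, and the CCAAT box, or its reverse complement ATTGG.
ASPM: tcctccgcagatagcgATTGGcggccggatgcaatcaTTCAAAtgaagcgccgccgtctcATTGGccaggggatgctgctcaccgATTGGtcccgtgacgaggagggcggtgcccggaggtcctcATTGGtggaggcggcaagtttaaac
KIF15: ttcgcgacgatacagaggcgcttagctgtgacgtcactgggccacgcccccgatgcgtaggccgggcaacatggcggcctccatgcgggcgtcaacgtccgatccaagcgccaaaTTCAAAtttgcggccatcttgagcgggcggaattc
ESPL1: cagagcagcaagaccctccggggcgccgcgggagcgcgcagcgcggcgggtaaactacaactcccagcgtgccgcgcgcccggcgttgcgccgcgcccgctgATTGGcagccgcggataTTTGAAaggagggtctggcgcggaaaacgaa
KIF11: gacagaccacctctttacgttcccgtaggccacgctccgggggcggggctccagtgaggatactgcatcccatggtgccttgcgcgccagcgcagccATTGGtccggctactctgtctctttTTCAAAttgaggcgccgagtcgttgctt
The CHR form begins 28 bases before the start in KIF11, 31 in ESPL1, 35 in KIF15 and 113 in ASPM. ASPM also holds CCAAT boxes 134, 90, 65 and 25 bases before the start, ESPL1 holds 1 at 48 bases and KIF11 holds 1 at 53 bases, and no CCAAT box stands in the stretch shown for KIF15.

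The same letters were counted on both strands in RefSeq promoters of 250 bases before to 50 after the start, which were at hand for 42 of the 49 members and 14425 of the genes tested. TTTGAA stood in 29 member promoters (69.0%), against 12.1% of all promoters, and the CHR form TTCGAA stood in 3 (7.14%), against 1.69%. At least 1 of these 2 CHR forms was in 30 of the 42 (71.4%), against 13.5% of all promoters. No other form of the element was searched, so a promoter without these 2 is not shown to lack it. CCAAT was in 31 (73.8%), against 36.4%, and a CHR form together with CCAAT in 25 (59.5%), against 5.58%. The E2F site TTTGGCGC was in 2 member promoters (4.76%), against 0.894%, and TTTCGCGC in 1 (2.38%), against 0.846%. The core of the heat shock element, GAANNTTC, was in 3 member promoters (7.14%), against 5.41% of all promoters. The GAA that ends a CHR form can also open GAANNTTC, and each motif was counted on its own. The median difference after both treatments was -0.51 over the 30 members with TTTGAA or TTCGAA and -0.48 over the 12 with neither. Among members with a promoter at hand, 28 of the 37 called lower held TTTGAA or TTCGAA (75.7%), and 2 of the 5 not called did (40%). A match is a run of letters, and no binding was measured.

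**Figure D2:**
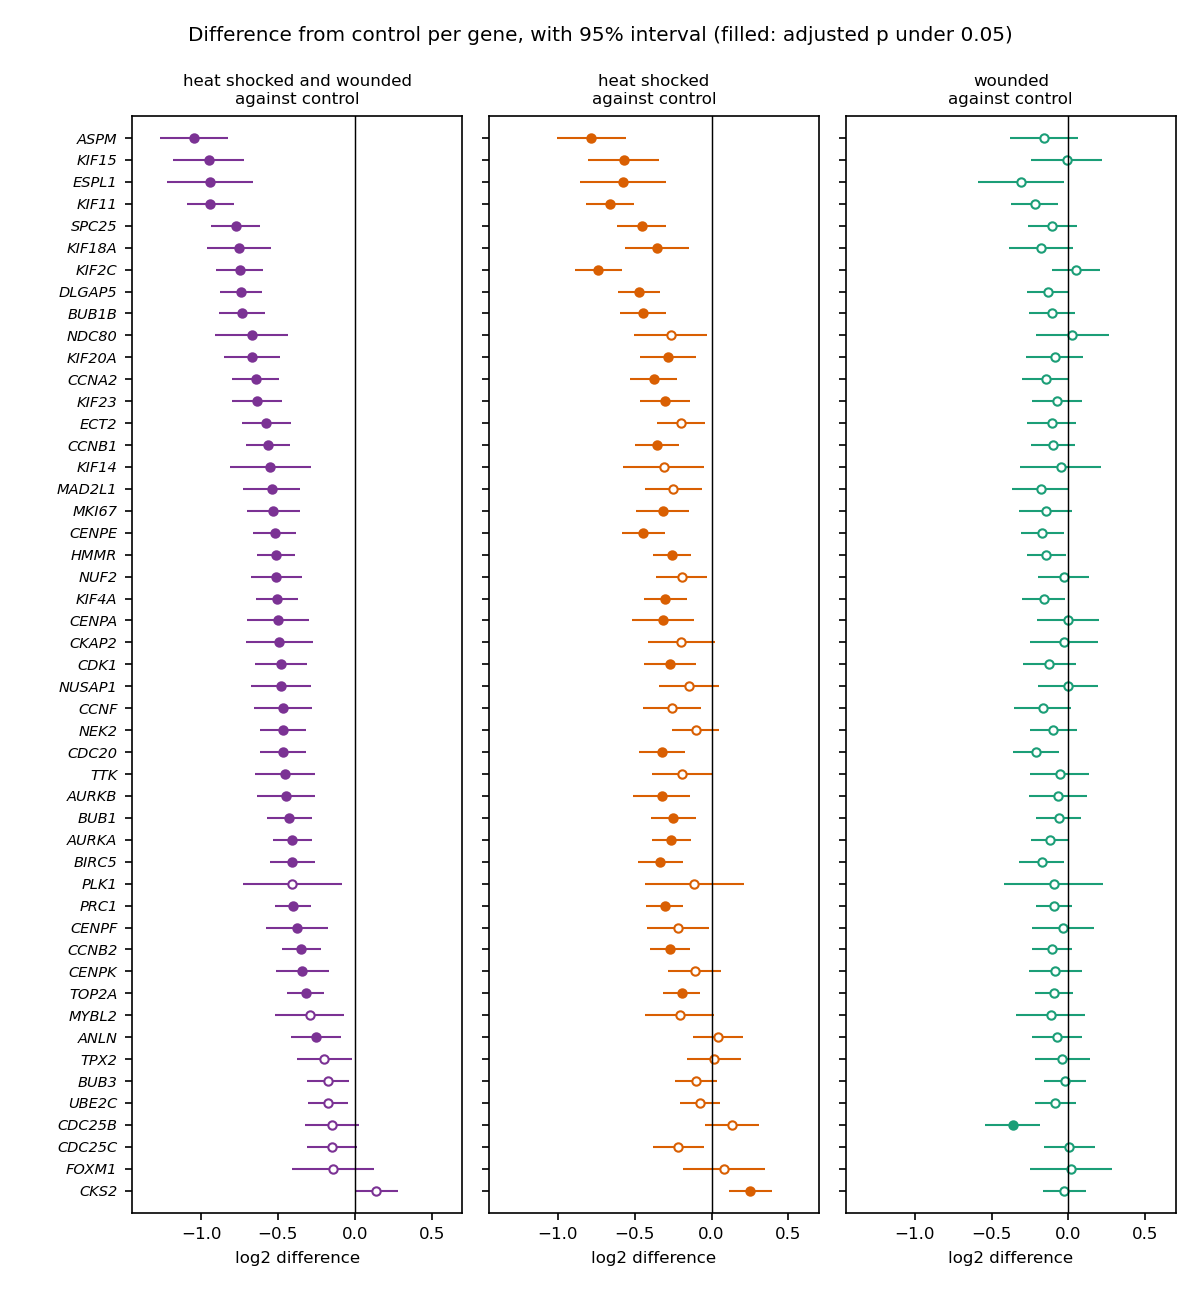
Log2 difference from control for each of the 49 genes, in order of the difference after both treatments, in heat shocked and wounded (left), heat shocked (middle) and wounded (right) monolayers. Points are differences, bars 95% intervals and filled points have an adjusted p under 0.05 in limma. Filled points number 40 on the left, 28 in the middle and 1 on the right.

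Of the 8 genes of mitotic entry, 5 were called lower after both treatments, with a median difference of -0.41, and 4 lower and 1 higher after heat shock. CDK1, the kinase that starts mitosis, read 10.43, 10.37 and 10.35 on heat shocked and wounded arrays, 10.60, 10.71 and 10.47 on heat shocked, 10.79, 10.78 and 10.64 on wounded and 10.89, 10.95 and 10.75 on control arrays. The heat shocked and wounded arrays lay below all others, and the wounded and control arrays overlapped. CDK1 fell by 28.3% after both treatments (-0.48 ± 0.08, adjusted p = 0.000769, limma) and fell by 17% after heat shock (-0.27 ± 0.08, adjusted p = 0.0409). The heat shock call was close to the threshold and was lost in several other settings, such as without control replicate 1 (adjusted p = 0.128) or heat shocked replicate 3 (adjusted p = 0.127). CCNB1, the B cyclin that partners CDK1, read 10.19, 10.05 and 10.20 on heat shocked and wounded arrays, 10.27, 10.35 and 10.44 on heat shocked, 10.62, 10.59 and 10.61 on wounded and 10.68, 10.75 and 10.70 on control arrays. No 2 of the 4 groups overlapped for CCNB1, and the wounded arrays lay just under the control arrays. Its difference was -0.56 ± 0.07 after both treatments (adjusted p = 5.48e-05, limma), -0.35 ± 0.07 after heat shock (adjusted p = 0.00374) and -0.10 ± 0.07 after wounding (adjusted p = 0.587).

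CCNA2, the A cyclin of S phase and G2, read 8.40, 8.31 and 8.51 on heat shocked and wounded arrays, 8.58, 8.71 and 8.73 on heat shocked, 8.87, 8.97 and 8.87 on wounded and 9.07, 9.02 and 9.06 on control arrays. The 4 groups stood apart, and CCNA2 fell by 36% after both treatments (adjusted p = 3.57e-05, limma) and fell by 23% after heat shock (adjusted p = 0.00402). CCNB2, the second B cyclin, differed by -0.35 and -0.27 in the same comparisons and was called in both. CCNF, the cyclin that serves as a ubiquitin ligase subunit, was called after both treatments (-0.47) and missed the threshold after heat shock (-0.26, adjusted p = 0.0705).

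CDC25B, a phosphatase that activates CDK1 before mitosis, was the single member called after wounding. It read 10.01, 9.89 and 9.87 on heat shocked and wounded arrays, 10.15, 10.12 and 10.34 on heat shocked, 9.72, 9.59 and 9.83 on wounded and 10.12, 10.06 and 10.04 on control arrays. The wounded arrays were the lowest, and the heat shocked arrays met the control arrays at the upper end. CDC25B fell by 22.3% after wounding (-0.36 ± 0.08, adjusted p = 0.0286, limma), and its differences after both treatments (-0.15 ± 0.08) and after heat shock (0.13 ± 0.08) did not pass. The call after wounding did not hold without control replicate 1, 2 or 3 or wounded replicate 1 or 2, where the count of members called was 0 and the adjusted p of CDC25B ran between 0.0660 and 0.142. All 5 CDC25B probe sets were lower after wounding, with differences between -0.37 and -0.30. Its paralogue CDC25C was not called in any comparison (-0.15 after both treatments, -0.22 after heat shock and 0.01 after wounding).

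CKS2, a small subunit that docks CDK1 on its substrates, was the single member called higher against control. It read 11.82, 11.80 and 11.77 on heat shocked and wounded arrays, 11.91, 11.96 and 11.86 on heat shocked, 11.66, 11.69 and 11.53 on wounded and 11.71, 11.67 and 11.58 on control arrays. Both heat shocked groups lay above the groups without heat shock. The rise was 19% after heat shock (0.25 ± 0.06, adjusted p = 0.0234, limma), and the difference of 0.14 ± 0.06 after both treatments did not pass (adjusted p = 0.15). The call after heat shock was lost without heat shocked replicate 1 or 2 or control replicate 2 or 3, with adjusted p between 0.0594 and 0.0882.

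**Figure D3:**
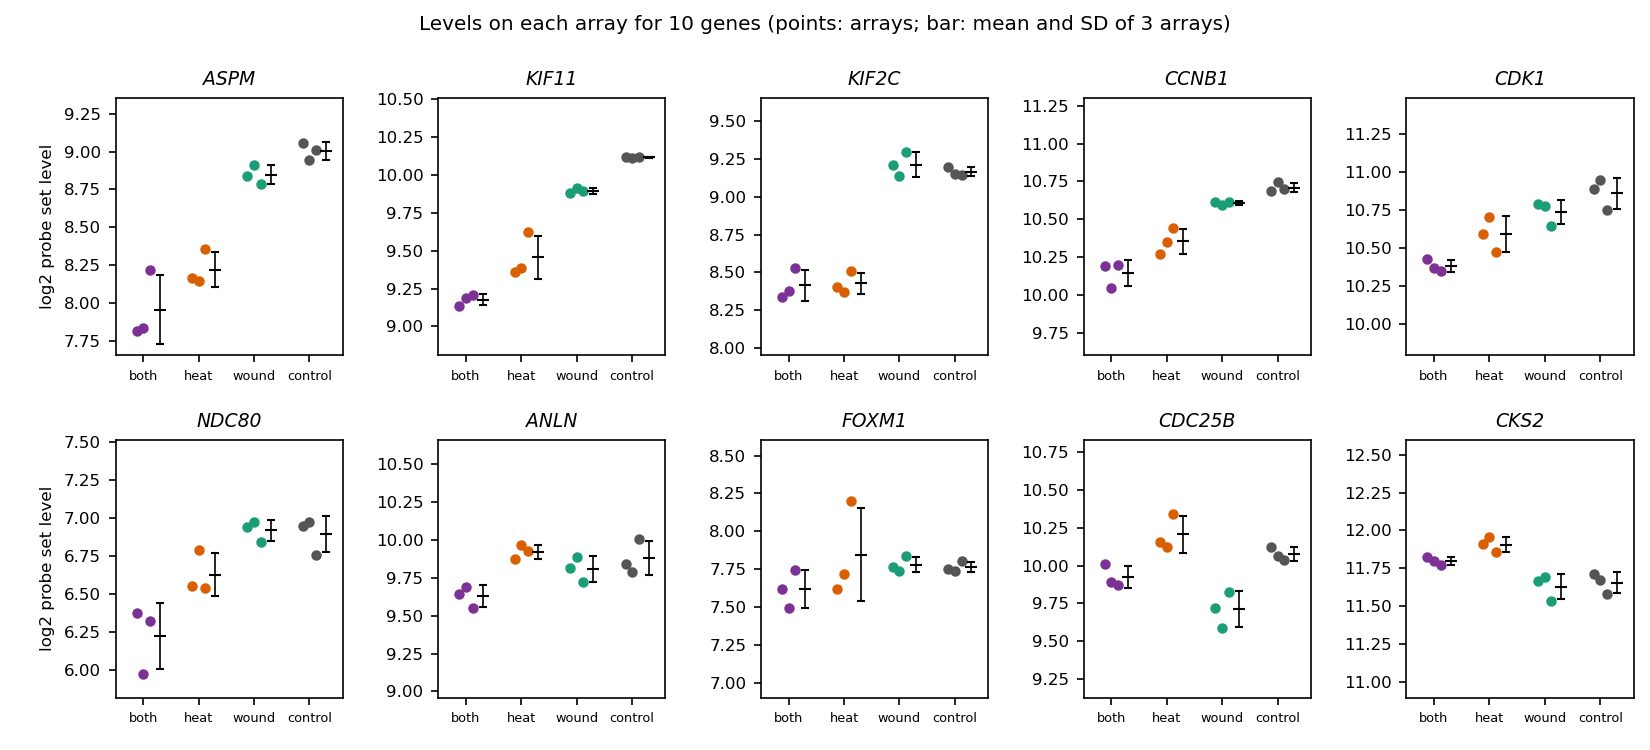
Log2 probe set levels of 10 genes on every array, in heat shocked and wounded (both), heat shocked (heat), wounded (wound) and control monolayers. Points are arrays and the bar beside them the mean and SD of 3 arrays, with all axes spanning the same range around the gene's mean. ASPM, KIF11 and KIF2C fell in both heat shocked groups, CDC25B was lowest in the wounded group, CKS2 was highest in the heat shocked group, and the third heat shocked array of FOXM1 stands at 8.20.

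The 5 mitotic kinases and partners included 4 called lower after both treatments and 3 after heat shock. PLK1, the polo-like kinase of centrosome maturation and mitotic exit, was the exception after both treatments. It read 7.07, 7.08 and 7.24 on heat shocked and wounded arrays, 7.25, 7.19 and 7.83 on heat shocked, 7.34, 7.33 and 7.66 on wounded and 7.49, 7.62 and 7.50 on control arrays. The third heat shocked array stood above all 3 control arrays while the first 2 stood below them. The difference of -0.41 ± 0.15 after both treatments just missed the threshold (adjusted p = 0.0692, limma), and it passed in the fit without heat shocked replicate 3 (adjusted p = 0.00833). It also passed with a filter on dim genes, a trended robust spread, array weights or the replicate block (adjusted p between 0.019 and 0.0446). So it did on the first 2 replicates of each group (0.00392) and with a term for the label code (0.0223). In the remaining settings it did not pass. After heat shock the PLK1 difference was -0.11 ± 0.15 in all arrays, -0.32 without heat shocked replicate 3 and 0.01 without heat shocked replicate 2, none of which passed, and it was -0.34 on the first 2 replicates of each group, which did (adjusted p = 0.0301). AURKA, the centrosomal Aurora kinase, differed by -0.41 after both treatments and -0.26 after heat shock, and AURKB, the kinase of the chromosomal passenger complex, by -0.45 and -0.33. BIRC5, or survivin, the passenger subunit that brings AURKB to centromeres, differed by -0.41 and -0.33. All 3 were called in both comparisons.

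NEK2, a kinase that splits the centrosomes, was called after both treatments and after neither one alone. It read 8.38, 8.26 and 8.23 on heat shocked and wounded arrays, 8.65, 8.67 and 8.63 on heat shocked, 8.75, 8.64 and 8.58 on wounded and 8.83, 8.76 and 8.67 on control arrays. The heat shocked, wounded and control arrays lay close together, and the heat shocked and wounded arrays lay below them all. The difference from control was -0.47 ± 0.07 after both treatments (adjusted p = 0.000374, limma), -0.10 ± 0.07 after heat shock (adjusted p = 0.409) and -0.10 ± 0.07 after wounding (adjusted p = 0.64).

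Of the 5 spindle checkpoint genes, 4 were called lower after both treatments and 2 after heat shock. BUB1B, which encodes the APC/C inhibitor BUBR1, read 7.50, 7.44 and 7.53 on heat shocked and wounded arrays, 7.75, 7.84 and 7.74 on heat shocked, 8.16, 8.14 and 8.04 on wounded and 8.21, 8.33 and 8.13 on control arrays. Wounded and control arrays overlapped, and both heat shocked groups lay below them. BUB1B fell by 40% after both treatments (-0.74 ± 0.07, adjusted p = 1.02e-05, limma) and fell by 26.6% after heat shock (-0.45 ± 0.07, adjusted p = 0.00128). The kinase BUB1 was called in both comparisons (-0.43 and -0.25). MAD2L1, the MAD2 protein that binds CDC20, and TTK, the MPS1 kinase at the head of the checkpoint, were called after both treatments (-0.54 and -0.46) and not after heat shock (-0.25 and -0.19). BUB3, which anchors BUB1 and BUBR1 at kinetochores, was not called after both treatments (-0.18, adjusted p = 0.0638) or after heat shock (-0.10).

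Among the 3 measured genes of anaphase and the APC/C, ESPL1 fell as described above and CDC20, the APC/C activator of anaphase onset, was called lower after both treatments (-0.47) and after heat shock (-0.32). CDC20 differed by -0.21 ± 0.07 after wounding, where the adjusted p was 0.158 in limma. UBE2C, the E2 enzyme that works with the APC/C, was not called, with differences of -0.17, -0.07 and -0.08 after both treatments, heat shock and wounding.

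All 7 kinetochore and centromere genes were called lower after both treatments, with a median difference of -0.51 and a range of -0.77 to -0.34, and 3 of them were called after heat shock. SPC25, a subunit of the NDC80 complex that grips microtubules, read 7.56, 7.42 and 7.49 on heat shocked and wounded arrays, 7.73, 7.84 and 7.86 on heat shocked, 8.14, 8.20 and 8.13 on wounded and 8.22, 8.18 and 8.40 on control arrays. The groups stepped down in 3 levels, since wounded and control arrays overlapped. SPC25 fell by 41.6% after both treatments (-0.77 ± 0.07, adjusted p = 1.1e-05, limma) and fell by 27% after heat shock (adjusted p = 0.00163).

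Its partners NDC80 and NUF2 were not called after heat shock alone. NDC80 itself read 6.38, 5.97 and 6.32 on heat shocked and wounded arrays, 6.55, 6.79 and 6.54 on heat shocked, 6.94, 6.98 and 6.84 on wounded and 6.95, 6.97 and 6.76 on control arrays. The control and heat shocked arrays overlapped, and the heat shocked and wounded arrays lay below all others, with replicate 2 the lowest. NDC80 differed by -0.67 ± 0.11 after both treatments (adjusted p = 0.000753, limma) and by -0.27 ± 0.11 after heat shock (adjusted p = 0.145). NUF2, which forms the microtubule end of the complex with NDC80, read 7.50, 7.31 and 7.51 on heat shocked and wounded arrays, 7.68, 7.83 and 7.76 on heat shocked, 8.02, 7.91 and 7.83 on wounded and 7.96, 7.98 and 7.91 on control arrays. Its heat shocked arrays lay just under the control arrays and met the wounded ones, and the call came with both treatments (-0.51 ± 0.08, adjusted p = 0.000381) and not with heat shock (-0.20 ± 0.08, adjusted p = 0.123). Whether the heat shock effect on SPC25 differed from that on NDC80 or NUF2 was not tested.

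CENPE, the kinetochore kinesin that carries chromosomes to the spindle equator, read 7.35, 7.27 and 7.47 on heat shocked and wounded arrays, 7.43, 7.50 and 7.39 on heat shocked, 7.73, 7.74 and 7.67 on wounded and 7.90, 7.87 and 7.89 on control arrays. The 2 heat shocked groups overlapped, at -0.52 ± 0.06 with wounding and -0.44 ± 0.06 without (adjusted p = 8.97e-05 and 0.000828, limma). CENPA, the histone H3 variant that marks the centromere, was called in both comparisons (-0.50 and -0.32). CENPF, which tethers dynein at the kinetochore, and CENPK, of the constitutive centromere network, were called after both treatments (-0.38 and -0.34) and not after heat shock (-0.22 and -0.11).

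The 8 mitotic kinesins had the lowest median of the 10 roles after both treatments, at -0.71, with all 8 called lower and a range of -0.95 to -0.51. After heat shock 7 of the 8 were called lower, and the median was -0.34. KIF2C, or MCAK, which takes microtubules apart at centromeres, read 8.34, 8.38 and 8.53 on heat shocked and wounded arrays, 8.41, 8.37 and 8.51 on heat shocked, 9.21, 9.13 and 9.29 on wounded and 9.20, 9.15 and 9.14 on control arrays. The 2 heat shocked groups overlapped, and so did the wounded and control groups. KIF2C fell by 40.5% after both treatments (adjusted p = 1.13e-05, limma) and fell by 40% after heat shock alone (adjusted p = 4.22e-05), and the difference between those groups was -0.01 ± 0.07 (95% interval -0.17 to 0.14).

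KIF18A, which damps chromosome movements at the spindle equator, read 7.44, 7.13 and 7.51 on heat shocked and wounded arrays, 7.70, 7.73 and 7.83 on heat shocked, 8.01, 7.83 and 7.97 on wounded and 8.20, 8.03 and 8.10 on control arrays. Its heat shocked and wounded arrays lay well under the heat shocked ones, and the gene fell by 40.6% with both treatments (-0.75 ± 0.10, adjusted p = 0.000116, limma) and fell by 22% with heat shock (adjusted p = 0.0277). The cytokinesis motor KIF20A, or MKLP2, read 7.77, 7.61 and 7.82 on heat shocked and wounded arrays, 8.05, 8.0 and 8.31 on heat shocked, 8.32, 8.32 and 8.30 on wounded and 8.36, 8.41 and 8.43 on control arrays. KIF23, or MKLP1, the motor of the central spindle, read 8.80, 8.76 and 8.92 on heat shocked and wounded arrays, 9.04, 9.18 and 9.26 on heat shocked, 9.37, 9.46 and 9.34 on wounded and 9.49, 9.38 and 9.53 on control arrays. For both of these motors the heat shocked and wounded arrays lay below every other array. KIF20A differed by -0.67 after both treatments and -0.28 after heat shock, and KIF23 by -0.64 and -0.30, all called. KIF4A, a chromosome-bound kinesin, was called in both comparisons (-0.51 and -0.30), and KIF14, a kinesin of cytokinesis, after both treatments (-0.55) and not after heat shock (-0.31, adjusted p = 0.121).

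Of the 7 spindle and microtubule genes, 6 were called lower after both treatments and 4 after heat shock, ASPM among them. DLGAP5, or HURP, which bundles kinetochore fibres, read 8.85, 8.70 and 8.73 on heat shocked and wounded arrays, 9.0, 9.06 and 9.03 on heat shocked, 9.42, 9.35 and 9.36 on wounded and 9.49, 9.57 and 9.46 on control arrays. The 4 groups did not overlap, and the arrays of each lay close together. DLGAP5 fell by 40.2% after both treatments (-0.74 ± 0.06, adjusted p = 4.43e-06, limma) and fell by 28% after heat shock (-0.47 ± 0.06, adjusted p = 0.000428). HMMR, a hyaluronan receptor that also acts at spindle poles, and PRC1, which crosslinks the microtubules of the central spindle, were called in both comparisons, at -0.51 and -0.26 for HMMR and -0.40 and -0.31 for PRC1. NUSAP1 and CKAP2, which stabilise spindle microtubules, were called after both treatments (-0.48 and -0.49) and not after heat shock (-0.15 and -0.20). TPX2, which activates AURKA on the spindle, was not called. Its difference was -0.20 ± 0.08 after both treatments (adjusted p = 0.106) and 0.02 ± 0.08 after heat shock, where the third array, at 9.82, stood above the first 2 at 9.48 and 9.50.

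Both cytokinesis genes were called lower after both treatments and not after heat shock. ECT2, the exchange factor that activates RhoA at the cleavage furrow, read 9.69, 9.40 and 9.57 on heat shocked and wounded arrays, 9.94, 9.92 and 9.92 on heat shocked, 10.02, 10.06 and 9.98 on wounded and 10.15, 10.08 and 10.16 on control arrays. The heat shocked and wounded arrays lay below the rest, and ECT2 differed by -0.58 ± 0.07 after both treatments (adjusted p = 0.000112, limma) and by -0.20 ± 0.07 after heat shock (adjusted p = 0.0988). ANLN, the furrow scaffold anillin, was called at -0.25 after both treatments and differed by 0.04 after heat shock.

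Both genes of the mitotic chromosome were called lower after both treatments and after heat shock. MKI67, the Ki-67 protein that coats mitotic chromosomes and marks cycling cells, read 9.05, 9.04 and 8.99 on heat shocked and wounded arrays, 9.32, 9.26 and 9.15 on heat shocked, 9.26, 9.39 and 9.57 on wounded and 9.55, 9.56 and 9.56 on control arrays. The control arrays lay on almost 1 level, and the third wounded array stood with them while the first 2 wounded arrays stood lower. MKI67 fell by 30.7% after both treatments (-0.53 ± 0.08, adjusted p = 0.000384, limma) and fell by 19.8% after heat shock (-0.32 ± 0.08, adjusted p = 0.0192). The heat shock call was lost without control replicate 1, 2 or 3 or heat shocked replicate 3, with adjusted p between 0.0557 and 0.0632. TOP2A, the topoisomerase that untangles sister chromatids, differed by -0.32 and -0.20 in the 2 comparisons.

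Neither transcription factor was called in any comparison. FOXM1, which activates many G2/M genes, read 7.62, 7.50 and 7.75 on heat shocked and wounded arrays, 7.62, 7.72 and 8.20 on heat shocked, 7.77, 7.74 and 7.83 on wounded and 7.75, 7.74 and 7.80 on control arrays. Apart from the third heat shocked array, the highest of the 12, the groups overlapped. Its differences were -0.14 ± 0.12 after both treatments (adjusted p = 0.469, limma; 95% interval -0.41 to 0.12) and 0.08 ± 0.12 after heat shock (-0.09 without heat shocked replicate 3, adjusted p = 0.544). MYBL2, the B-Myb factor that works with MuvB, differed by -0.29 ± 0.10 after both treatments (adjusted p = 0.0612) and -0.21 ± 0.10 after heat shock. The third heat shocked array was again the highest of its group, at 7.83 against 7.41 and 7.46.

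After heat shock alone, the count of 28 members called, 1 of them higher, fell to 17 without control replicate 1 and to 18 without heat shocked replicate 1. The remaining arrays, left out in turn, gave counts up to 29. Centring or scaling the arrays in another way also moved the balance for all genes: 38.4% of the genes called after heat shock were higher in the deposited scale, 50.1% after median centring and 49.3% after cyclic loess. The members stood at 22 lower and 1 higher after median centring and at 23 lower and 1 higher after cyclic loess. For both treatments against control the share of higher calls was 37.6% in the deposited scale and 49.8% after cyclic loess, where 38 members were lower and 1 higher.

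After wounding alone, the members' differences were below 0 for 45 of 49 (91.8%), against 62.2% of all genes. An unadjusted p under 0.05 in limma was found for 8 of 49 (16.3%), all of them lower, with KIF11 (-0.22), CDC20 (-0.21), CENPE (-0.17) and HMMR (-0.14) among them. For all genes the share was 13.2%, which counts both directions, and the share of lower genes alone was not counted. All 3 wounded arrays lay below all 3 control arrays for 20 of the 49 members, against 13.9% of all genes tested. The single call, of CDC25B, became 3 with a trended robust spread and 4 with array weights.

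Within wounded monolayers, a preceding heat shock went with lower mitotic transcripts. Of the 49 members, 39 were called lower and 0 higher in heat shocked and wounded than in wounded monolayers, against 8.6% and 6.31% of all genes, and the median difference was -0.37 against 0.02 over all genes. KIF15 (-0.94 ± 0.11, adjusted p = 0.000133, limma), ASPM (-0.89 ± 0.10, adjusted p = 0.000152), KIF2C (-0.80 ± 0.07, adjusted p = 2.48e-05), KIF11 (-0.72 ± 0.07, adjusted p = 5.58e-05) and NDC80 (-0.70 ± 0.11, adjusted p = 0.00131) fell most. CDK1 (-0.36), CCNB1 (-0.46) and MKI67 (-0.38) were called too, while PLK1 (-0.31, adjusted p = 0.194) and FOXM1 (-0.16, adjusted p = 0.435) were not. CDC25B and CKS2 were the 2 members with a difference above 0 (0.21 and 0.17), neither of which passed. The share of higher calls among all genes was 42.3% in the deposited scale and 52.8% after cyclic loess, where 33 members were lower and 1 higher.

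Monolayers heat shocked and then wounded had a further fall in some members against those only heat shocked. No time of collection is given for monolayers that were only heat shocked, so wounding and time since the heat shock cannot be told apart. Of the 49 members, 12 were called lower and 0 higher in heat shocked and wounded than in heat shocked monolayers, against 1.58% and 2.71% of all genes, with a median of -0.23 against 0.01 over all genes. The members called were KIF18A (-0.39 ± 0.10, adjusted p = 0.0374, limma), KIF20A (-0.39 ± 0.08, 0.0214), ECT2 (-0.38 ± 0.07, 0.0108), NEK2 (-0.36 ± 0.07, 0.00978), KIF23 (-0.33 ± 0.08, 0.0274), SPC25, NUF2, ANLN, BUB1B, KIF11, DLGAP5 and HMMR. Not called were CDK1 (-0.21), CCNB1 (-0.21), MKI67 (-0.21), PLK1 (-0.29, as large as several called members) and FOXM1 (-0.22), and KIF2C was at -0.01. NDC80 (-0.40 ± 0.11, adjusted p = 0.0616) and KIF15 (-0.38 ± 0.11, adjusted p = 0.0699) differed as much without passing. The count rests on few arrays. It was 7 without control replicate 1, 7 without heat shocked replicate 1, 3 without heat shocked replicate 2, 2 without heat shocked replicate 3 and 2 without heat shocked and wounded replicate 2. The median over members stayed between -0.27 and -0.20 in these fits.

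Monolayers that were only heat shocked were also set against those that were only wounded. Of the 49 members, 11 were called lower and 2 higher in heat shocked than in wounded monolayers, against 6.01% and 4.51% of all genes, with a median of -0.17 against -0.00 over all genes. KIF2C (-0.78 ± 0.07, adjusted p = 2.96e-05, limma), ASPM (-0.62 ± 0.10, 0.00188), KIF15 (-0.56 ± 0.11, 0.00473) and KIF11 (-0.44 ± 0.07, 0.0017) were lower in heat shocked monolayers. CDC25B (0.49 ± 0.08, 0.00188) and CKS2 (0.28 ± 0.06, 0.016) were higher. CCNB1 was called (-0.25), and CDK1 (-0.15), MKI67 (-0.17), PLK1 (-0.02) and FOXM1 (0.06) were not. FOXM1 was at -0.11 without heat shocked replicate 3, and PLK1 at 0.07, 0.10 and 0.09 without heat shocked replicate 1, heat shocked replicate 2 and wounded replicate 3. Without heat shocked replicate 1 the count of 13 was 8, and with array weights it was 24.

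The interaction asks whether the heat shock difference in wounded monolayers departs from that in monolayers without a wound. No time of collection is given after heat shock alone, so wounding and time since the heat shock cannot be told apart here either. No member was called, against 0% of all genes called lower and 0.00552% called higher. An unadjusted p under 0.05 in limma was found for 8 of 49 members, and for 1302 of the 18132 genes. The smallest values were those of NDC80 (-0.43 ± 0.15, adjusted p = 0.614), NEK2 (-0.27 ± 0.10, adjusted p = 0.624) and NUF2 (-0.29 ± 0.11, adjusted p = 0.625). The interaction was below 0 for 42 of 49 members, with a median of -0.11 against 0.04 over all genes, and for CDK1, CCNB1, MKI67, PLK1 and FOXM1 it was -0.09, -0.11, -0.06, -0.20 and -0.24. Single arrays decided some of these, since without heat shocked replicate 3 the value was 0.01 for PLK1 and -0.06 for FOXM1, and without wounded replicate 3 it was 0.02 for MKI67.

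**Figure D4:**
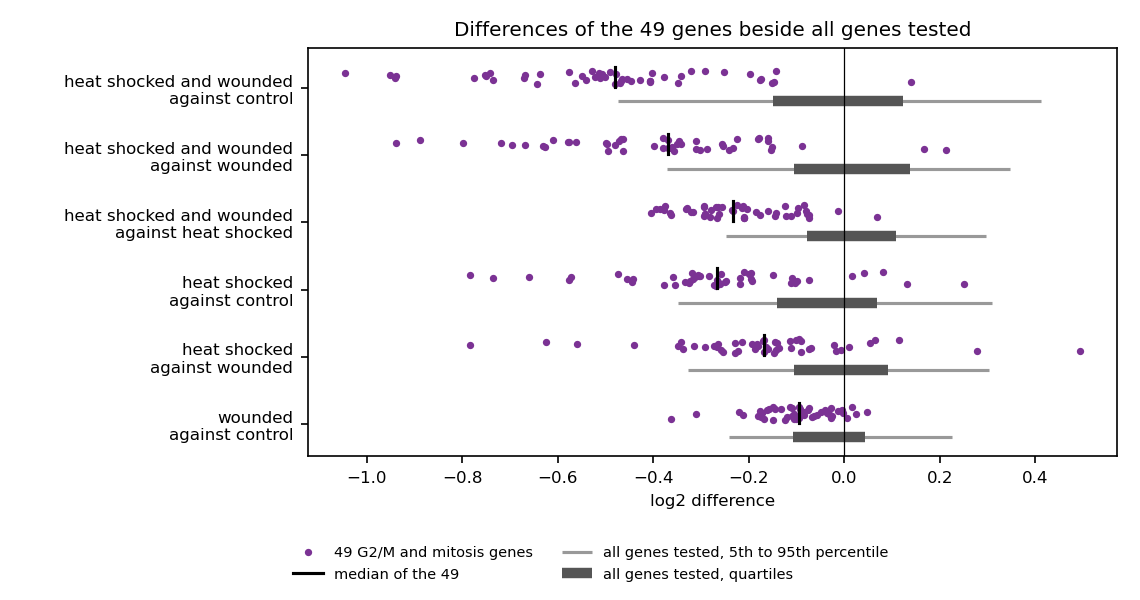
Log2 differences of the 49 genes (points) with their median (black bar), beside all 18132 genes tested (thick grey bar, quartiles; thin bar, 5th to 95th percentile), in 6 comparisons. Of the 49, 26 lie below the 5th percentile of all genes for both treatments against control, 23 for both against wounding, 23 for both against heat shock, 12 for heat shock against control, 7 for heat shock against wounding and 2 for wounding against control.

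Other probe sets of the same genes were called lower in most cases after both treatments. After heat shock alone most lay below 0 but few were called. The members had 124 probe sets with 1 symbol, 18 members having a single one, and 67 probe sets of 30 genes were unused and above the dim range. Of these 67, 49 were called lower and 0 higher after both treatments, against 17% and 10.3% of the 26452 probe sets above the dim range, 64 were below 0, and their median was -0.38. After heat shock 54 of the 67 were below 0, with a median of -0.17. Only 7 were called lower and 0 higher, and the 7 are close to the background of 7.25% called lower and 6.87% called higher. After wounding 2 were called lower and 0 higher, against 0.919% and 2.78%. Probe sets disagreed for CDK1 after heat shock, where the probe set used and a second one differed by -0.27 and -0.28 and the last, with a mean level of 3.53 and thus under the dim range, by 0.61 (adjusted p = 0.0466, limma). The mean of the 3 was 0.02. All 6 MKI67 probe sets were lower after both treatments, between -0.82 and -0.51. The 2 unused FOXM1 probe sets differed by 0.01 and 0.00 after both treatments, and the 2 unused PLK1 probe sets by -0.27 and -0.22.

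The rest of the G2/M and mitosis programme was read from a further list of 86 measured genes outside the 49. After both treatments 60 of the 86 were called lower and 0 higher, with a median of -0.36, after heat shock 30 lower and 1 higher, with a median of -0.19, and after wounding 1 lower and 0 higher, with a median of -0.08. HJURP, the chaperone that loads CENPA, read 9.35, 9.16 and 9.43 on heat shocked and wounded arrays, 9.84, 9.80 and 10.12 on heat shocked, 9.88, 9.86 and 10.05 on wounded and 10.26, 10.26 and 10.27 on control arrays, and fell by 48.1% after both treatments (adjusted p = 1.94e-05, limma). GTSE1, a microtubule regulator, differed by -0.86 after both treatments, and the condensin subunits NCAPH and NCAPD3 by -0.81 and -0.79. NCAPD3 was the gene called after wounding (-0.25 ± 0.06, adjusted p = 0.0405). Of 39 measured genes of G1/S and replication, 37 were called lower after both treatments (median -0.58), 26 after heat shock (median -0.34) and 11 after wounding (median -0.23), with 0 higher in each. Among all genes 14.4% were called lower and 8.66% higher after both treatments, 7.92% and 4.93% after heat shock, and 1.31% and 2.27% after wounding. After wounding, the share called lower was 1.16% of the 86, near that of all genes, and 28.2% of the 39. CCNE2, a cyclin of S phase entry, differed by -1.68 after both treatments, and after wounding the largest called differences were those of E2F2 (-0.66), CDC25A (-0.52) and MCM10 (-0.52). Whether G1/S and G2/M genes differed in their response to wounding was not tested.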

How the data were processed

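RNA of 12 A549 monolayer samples was hybridised to Affymetrix PrimeView arrays, 1 sample an array, after labelling with a 3′ IVT kit per the labels' protocols. The deposited table holds log2 probe set levels that, per the submitters' processing notes, the authors made with RMA (Affymetrix Expression Console), whose version is not given in the sources used here. RMA subtracts background, quantile normalizes the arrays and summarises probes, so a change in total RNA per cell is removed. Of 49293 probe sets, 44987 carried 1 gene symbol in the platform annotation, 1832 several and 2473 were not listed. Each of 18132 genes was read through its probe set of highest mean level. limma 3.58.1 in R 4.3.3 fitted 1 mean per group (8 residual degrees of freedom) with moderated variances, and Benjamini-Hochberg adjustment ran over all genes with a threshold of 0.05. The fit was checked on simulated data. The members and lists were chosen with earlier results of these data known. Values for every array are given for the members with the largest called differences and no overlap between the groups (up to 10 in each comparison with control and 5 in the others), for the 3 smallest interaction p-values, for members called against the trend, and for CDK1, CCNB1, PLK1, FOXM1 and MKI67. From each other list, up to 4 called genes per comparison were named by size. Promoters came from RefSeq on GRCh38.p14. Alternatives covered normalization, probe set choice, a filter on dim genes, variance model, array weights, the replicate number, label codes and each array left out. The number of arrays limits the precision.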

Additional observations from a re-analysis of the deposited data

How the results depend on the processing

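Of the 22 alternatives run for each result, 12 left out 1 array. The median over members stayed below 0 in every comparison under all of them. After heat shock it was -0.23 with median centring, -0.23 with cyclic loess, -0.22 with the mean over a gene's probe sets and -0.31 on the arrays with label codes S2a and S2b alone, where the main value was -0.27. After both treatments it was -0.41 with cyclic loess, -0.45 with the mean over probe sets and -0.53 on the S2a and S2b arrays. Against wounding it was -0.32 with cyclic loess, against heat shock -0.20 with either cyclic loess or a second quantile normalization, and for the interaction -0.15 with the mean over probe sets. Members called after wounding numbered 3 with a trended robust spread and 4 with array weights. For both treatments against heat shock they numbered 19 with a trended robust spread and 1 on the S2a and S2b arrays, and for heat shock against wounding 24 with array weights. CDK1 after heat shock was 0.0216 with the mean over its probe sets, one of which lies in the dim range. With 1 array left out, members called ranged over 17 to 29 after heat shock, 0 to 2 after wounding, 39 to 44 after both treatments, 32 to 39 for both against wounding, 2 to 11 for both against heat shock and 8 to 15 for heat shock against wounding. The median ranged over -0.519 to -0.452 after both treatments, -0.274 to -0.197 for both against heat shock and -0.138 to -0.0796 for the interaction. The cause was not tested for any of these. Same-numbered samples correlated between -0.187 and 0.234 in their deviations from the group means, with a median of 0.057. Samples with different numbers correlated between -0.194 and 0.243, with a median of -0.026. These overlapping ranges do not settle whether same-numbered samples shared a culture or batch. With the replicate block, members called were 27, 1, 41, 37, 10 and 12 after heat shock, after wounding, after both, for both against wounding, for both against heat shock and for heat shock against wounding, and 0 for the interaction.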

Other observations

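A list of cell cycle repressors and DREAM subunits moved in both directions. Its MuvB subunits also work with MYBL2, which activates G2/M genes. Of 24 measured CDK inhibitors, antiproliferative genes and subunits of the DREAM complex, 8 were called higher and 6 lower after heat shock and wounding, 5 higher and 3 lower after heat shock, and 2 higher and 1 lower after wounding (limma). Of all genes, 8.66% were called higher and 14.4% lower after both treatments, 4.93% and 7.92% after heat shock, and 2.27% and 1.31% after wounding. MXD1, a repressor that competes with MYC for MAX, read 5.63, 5.92 and 5.92 on heat shocked and wounded arrays, 4.83, 5.20 and 4.68 on heat shocked, 4.22, 4.52 and 4.38 on wounded and 3.93, 3.85 and 3.88 on control arrays, and its wounded and control levels lay under the dim range of 4.60. Measured against that range, MXD1 was at least 2.33-fold higher after both treatments. The limma test was of its difference from the control arrays (adjusted p = 6.79e-07), not from that range. CDKN1A, the CDK inhibitor p21, read 11.44, 11.50 and 11.23 on heat shocked and wounded arrays, 11.07, 11.11 and 10.78 on heat shocked, 10.83, 10.78 and 10.71 on wounded and 10.54, 10.64 and 10.36 on control arrays. All 3 treated groups of CDKN1A lay above control, with calls after both treatments (0.87 ± 0.10, adjusted p = 6.95e-05) and heat shock (0.47 ± 0.10, adjusted p = 0.0109). The CDK inhibitor CDKN1B went the other way after both treatments. It read 8.39, 8.29 and 8.37 on heat shocked and wounded arrays and 8.77, 8.91 and 8.74 on control arrays. BTG1, an antiproliferative cofactor of mRNA decay, was higher by 0.85 after both, 0.56 after heat shock and 0.68 after wounding, called in each. The MuvB core subunit LIN9 fell by 42.6% after both treatments (-0.80 ± 0.11, adjusted p = 0.000271), while the subunit LIN37 was higher (0.44, adjusted p = 0.000715). LIN37 and CDKN1B were named after their values were seen.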
